A study of Mus musculus with 9 samples.

Results

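The transcripts of 10 genes that make, move and spend lactate and pyruvate were followed through 3 pluripotent states of a mouse embryonic stem cell line. The genes were taken by symbol from a list drawn up by role, with earlier results of these data known. The rule that picks them uses no measured value. All 10 were found among the 38293 genes of the count table, and all 10 passed the filter on low counts in every comparison. They are Ldha and Ldhb (lactate dehydrogenase subunits), Slc16a1 and Slc16a3 (the monocarboxylate transporters MCT1 and MCT4), Bsg (basigin, their chaperone), Pdk1 and Pdk3 (pyruvate dehydrogenase kinases), Pdha1 (the catalytic alpha subunit of pyruvate dehydrogenase), and Mpc1 and Mpc2 (the mitochondrial pyruvate carrier).

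RNA was sequenced from E14, an embryonic stem cell line of 129/Ola background, in 3 states with 3 biological replicates each. The naive cells (mESC-2i) were kept in serum-free N2B27 medium with LIF, the MEK inhibitor PD0325901 and the GSK3 inhibitor CHIR99021. The primed mESC (mESC-ser) were kept on gelatin in DMEM with foetal bovine serum and LIF. The epiblast-like cells (EpiLC) were derived from naive mESC on human plasma fibronectin, in N2B27 with activin A, bFGF and KSR. All 9 libraries come from the same line, so nothing here speaks to other lines, and the medium changed together with the state, so the effects of the 2 cannot be told apart. The replicates are labelled biological, but the labels do not say whether they were separate cultures, and p-values measure the spread between these samples.

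Glycolysis ends in pyruvate, which lactate dehydrogenase can turn into lactate in the cytosol or which the pyruvate carrier can bring into mitochondria. Lactate dehydrogenase is a tetramer of A and B subunits. Tetramers rich in A are best known from tissues that form lactate, and those rich in B from tissues that use it. MCT1 and MCT4 move lactate together with a proton across the plasma membrane, and MCT4 is known from cells that export much lactate. Inside mitochondria the pyruvate dehydrogenase complex makes acetyl-CoA, and the kinases switch it off by phosphorylating Pdha1. Lactate is also the source of the lactyl group on histone lysines, which is why its supply and export are of interest in these cells.

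Upstream sequences of the genes that set the EpiLC apart are shown first. Ldha and Slc16a3 were both higher in EpiLC than in either mESC state, while Slc16a1, the other transporter of the list, passed the call in no comparison. Each run is the 250 bases before an annotated start in RefSeq (GRCm38.p6, plus strand), with capitals on every place that holds ACGTG or GCGTG on either strand, the core letters to which hypoxia-inducible factor is known to bind.

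Ldha, chr7:46845554-46845803: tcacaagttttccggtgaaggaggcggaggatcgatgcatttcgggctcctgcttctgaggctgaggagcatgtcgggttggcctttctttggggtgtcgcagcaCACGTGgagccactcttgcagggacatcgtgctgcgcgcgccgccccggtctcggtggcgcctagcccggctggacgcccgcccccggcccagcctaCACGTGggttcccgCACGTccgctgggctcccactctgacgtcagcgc
Slc16a3, chr11:120948817-120949066: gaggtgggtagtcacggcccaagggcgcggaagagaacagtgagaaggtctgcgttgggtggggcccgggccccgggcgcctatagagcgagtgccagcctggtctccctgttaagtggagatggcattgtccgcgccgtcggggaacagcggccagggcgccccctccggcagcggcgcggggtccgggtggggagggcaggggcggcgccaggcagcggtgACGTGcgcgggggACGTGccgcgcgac
Slc16a1, chr3:104638414-104638663: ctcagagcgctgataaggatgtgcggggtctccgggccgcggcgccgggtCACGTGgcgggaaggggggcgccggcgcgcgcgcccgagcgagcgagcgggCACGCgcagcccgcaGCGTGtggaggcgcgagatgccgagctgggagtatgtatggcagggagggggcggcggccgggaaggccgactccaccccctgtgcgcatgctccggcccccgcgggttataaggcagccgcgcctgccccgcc

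The Ldha window shown held 3 such places, at 145, 48 and 34 bases before the start, and 2 of them were the palindrome CACGTG, which reads ACGTG on both strands. RefSeq lists a second Ldha start downstream, whose window (chr7:46846832-46847081, GC content 54.4%) held 1 place and no CACGTG. The Slc16a3 window held 2, at 27 and 14 bases before the start, and the Slc16a1 window held 3, of which 1 was CACGTG. RefSeq had windows for 9 of the 10 genes and 12 in all, of which 10 held at least 1 place. Among the windows not printed, that of Pdk3 held 4 places, and that of Pdha1, which was lower in EpiLC, held 3. Across all 32851 promoter windows of this length 38.6% held at least 1, and among the 9178 with a GC content of at least 60% the share was 63.8%. The mean was 0.589 places per window over all windows and 1.12 in the GC-rich ones. Of all windows 6.02% held CACGTG and 4.65% held 3 or more places. These last 2 shares were not computed for GC-rich windows. The printed windows of Ldha, Slc16a3 and Slc16a1 had a GC content of 67.2%, 73.6% and 76.4%. These letters are a description of the windows and not evidence of binding. The printed Ldha window lies within a longer annotated Ldha transcript, and the Slc16a3 window within a longer Slc16a3 transcript.

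Library depth ranged from 7187576 to 16829549 counts. The state labels were checked against marker genes. Summed over 4 genes (Klf4, Esrrb, Zfp42 and Tfcp2l1), the naive markers stood at 2124 to 2280 CPM (counts scaled to library size) in mESC-2i, 1223 to 1308 in mESC-ser but only 29.3 to 35.9 in EpiLC. The formative markers Fgf5, Dnmt3b, Otx2 and Pou3f1 summed to 71.8 to 80.3, 609 to 711 and 1620 to 1709 CPM in the same order. Pou5f1, Sox2, Nanog and Lin28a summed to at least 1542 CPM in every library. Markers of other cells were lower, and several moved with the state. The mesoderm genes T, Mixl1 and Mesp1 summed to 77.9 to 99.4 CPM in mESC-2i and at most 5.51 elsewhere, and 5 trophectoderm genes to 203 to 221 CPM in mESC-ser and at most 87.6 elsewhere. The 5 fibroblast genes summed to between 31.2 and 77.7 CPM, the 5 primitive endoderm genes to between 9.09 and 15.7 in the mESC states and 1.38 to 2.6 in EpiLC, and the 3 neural genes to between 25.4 and 33.2 in the mESC states and 1.19 to 2.01 in EpiLC. Elf5, of the trophectoderm genes, and Neurog2, of the neural genes, were at 0 in all EpiLC libraries. The part of these cells in the results below was not tested.

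Levels are given as CPM after TMM scaling over all 9 libraries, and genes are set against each other only as RPKM, which divides that CPM by exonic length. A gene was called when edgeR's quasi-likelihood test gave a Benjamini-Hochberg adjusted p below 0.05 over all tested genes and the log2 fold change exceeded 0.5 in size. Between mESC-ser and mESC-2i 6 of the 10 genes were called, 2 higher and 4 lower in mESC-ser, where 56.2% of the 15728 tested genes were called (25.9% higher and 30.3% lower). Between EpiLC and mESC-2i 7 were called, 5 higher and 2 lower in EpiLC, beside 69.8% of all 15378 tested genes (32.0% higher and 37.8% lower). That balance depended on the scaling, with 3 higher and 4 lower under total-count scaling and 3 and 3 with length and GC offsets. Between EpiLC and mESC-ser 8 were called, 5 higher and 3 lower, beside 73.3% of 15345 (35.5% higher and 37.8% lower). The number of called genes in the list was thus close to what the whole table showed in each comparison. The median log2 fold change of the 10 was 0.06, 0.45 and 0.66 in the 3 comparisons, against -0.04, -0.11 and -0.07 over all tested genes. The comparisons share libraries pairwise and are not independent of each other. In bulk RNA, fewer cells that express a gene and less RNA per cell cannot be told apart.

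**Figure D1:**
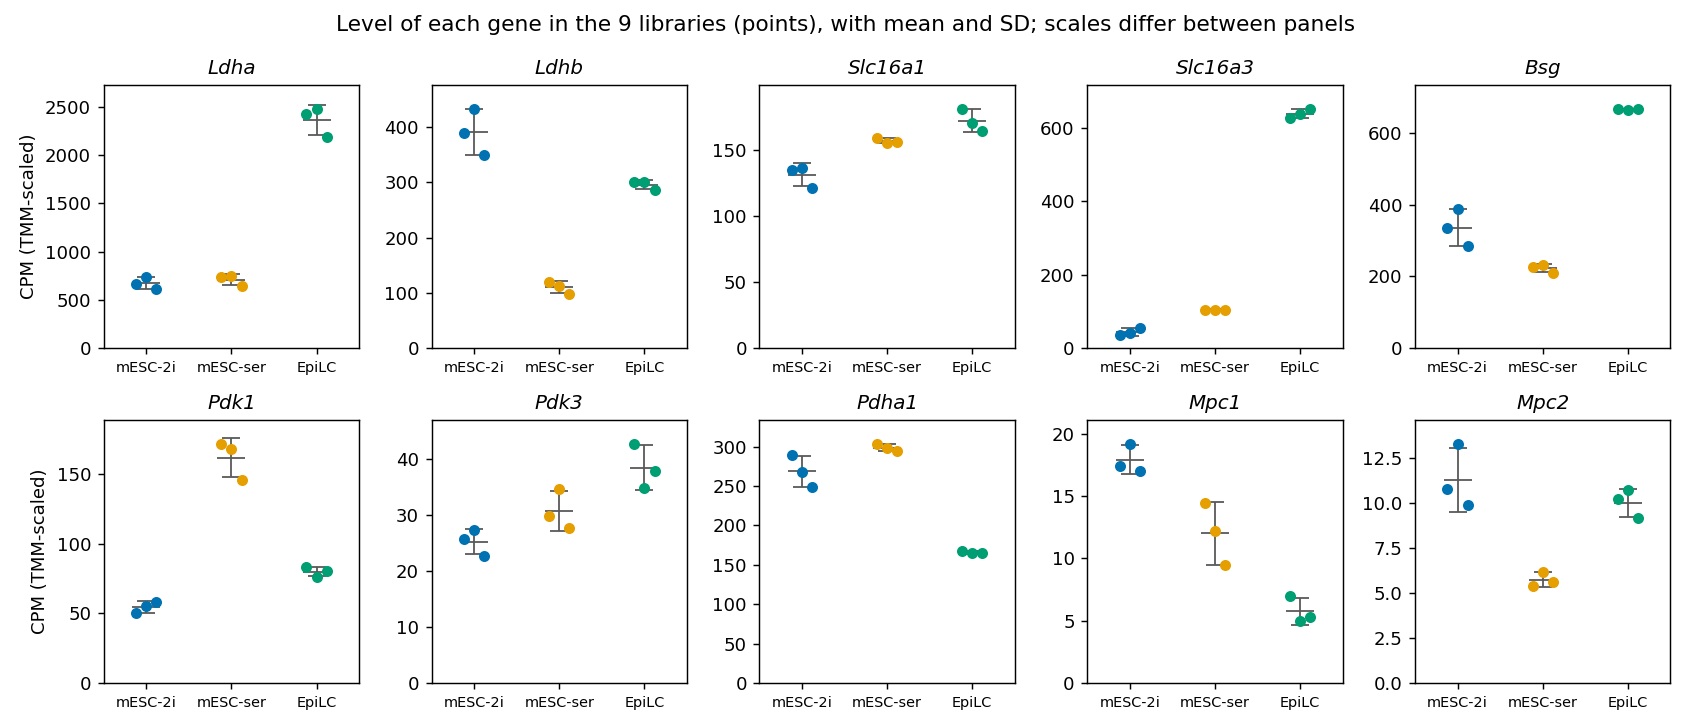
Level of each of the 10 genes (CPM, TMM-scaled; each panel has its own scale from 0) in the 3 libraries of mESC-2i, mESC-ser and EpiLC, with bars at the mean and SD. Ldha, Slc16a3 and Bsg reached their highest levels in EpiLC, Pdk1 in mESC-ser, and Ldhb and Mpc1 in mESC-2i.

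Ldha, on chromosome 7 (46841475 to 46855627, plus strand, mm10), encodes the A subunit. It stood at 664, 739 and 615 CPM in the 3 mESC-2i libraries, at 739, 752 and 642 in mESC-ser, while EpiLC had 2427, 2481 and 2189. The mESC states overlapped and every EpiLC library was above both. EpiLC exceeded mESC-2i by 1.80 ± 0.11 on the log2 scale (SE, edgeR, adjusted p = 1.98e-07) and mESC-ser by 1.82 ± 0.09 (edgeR, adjusted p = 9.29e-12). Between mESC-ser and mESC-2i the difference was 0.02 ± 0.11 (edgeR, adjusted p = 0.869). With offsets for length and GC content the last value became 0.35 (edgeR, adjusted p = 0.00455), still under the call threshold.

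Ldhb, on chromosome 6 (142490249 to 142507957, minus strand), encodes the B subunit and followed another course. Its levels were 390, 433 and 350 CPM in mESC-2i, 120, 113 and 98.5 in mESC-ser, against 300, 301 and 287 in EpiLC. No 2 states overlapped, and mESC-ser was the lowest. Ldhb fell by 1.88 ± 0.12 on the log2 scale from mESC-2i to mESC-ser (SE, edgeR, adjusted p = 5.17e-07). EpiLC lay above mESC-ser by 1.51 (edgeR, adjusted p = 7.17e-11), and this call was lost with length and GC offsets, where the difference was 0.39. Against mESC-2i the EpiLC value was -0.42 (edgeR, adjusted p = 0.00267) and not called, but it was -1.0 with those offsets and -0.76 with total-count scaling, both of them called. Reads of Ldhb are also open to its processed pseudogene Gm5514, which shares 21% of Ldhb's 50-base words and had up to 10.9% of its count. With the pseudogene's counts added the fall in mESC-ser was -1.89.

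Per length, Ldha and Ldhb overlapped in mESC-2i, at 203 ± 18.9 and 249 ± 26.4 RPKM (SD, n = 3). In mESC-ser Ldha stood at 215 ± 18.1 and Ldhb at 70.3 ± 6.97 RPKM, and in EpiLC at 715 ± 46.8 and 189 ± 4.95. Ldha thus made up 44.6%, 44.8% and 45.5% of the summed RPKM of the 2 genes in mESC-2i, 74.5%, 76% and 75.6% in mESC-ser, and the EpiLC libraries had 79.3%, 79.6% and 78.3%. The groups did not overlap. Each of the 3 contrasts gave p = 0.1 in a two-sided exact permutation test, the smallest that 3 against 3 libraries allow. Here and below this test took libraries as unpaired, although same-numbered replicates of mESC-ser and mESC-2i deviated together. The shift from mESC-2i to mESC-ser came with a lower Ldhb and an Ldha level that overlapped, whereas EpiLC had more of both than mESC-ser. These shares were not computed with length and GC offsets. Under the offsets EpiLC exceeded mESC-ser by 1.54 in Ldha and by 0.39 in Ldhb on the log2 scale, the latter not called. The summed RPKM of the pair was 452 ± 45.3, 285 ± 24.6 and 903 ± 51.8 (SD, n = 3) in mESC-2i, mESC-ser and EpiLC. With the length of the longest transcript in place of all exons the Ldha share was 55.3%, 82.2% and 85.1%, so which subunit led in mESC-2i depends on the length used.

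**Figure D2:**
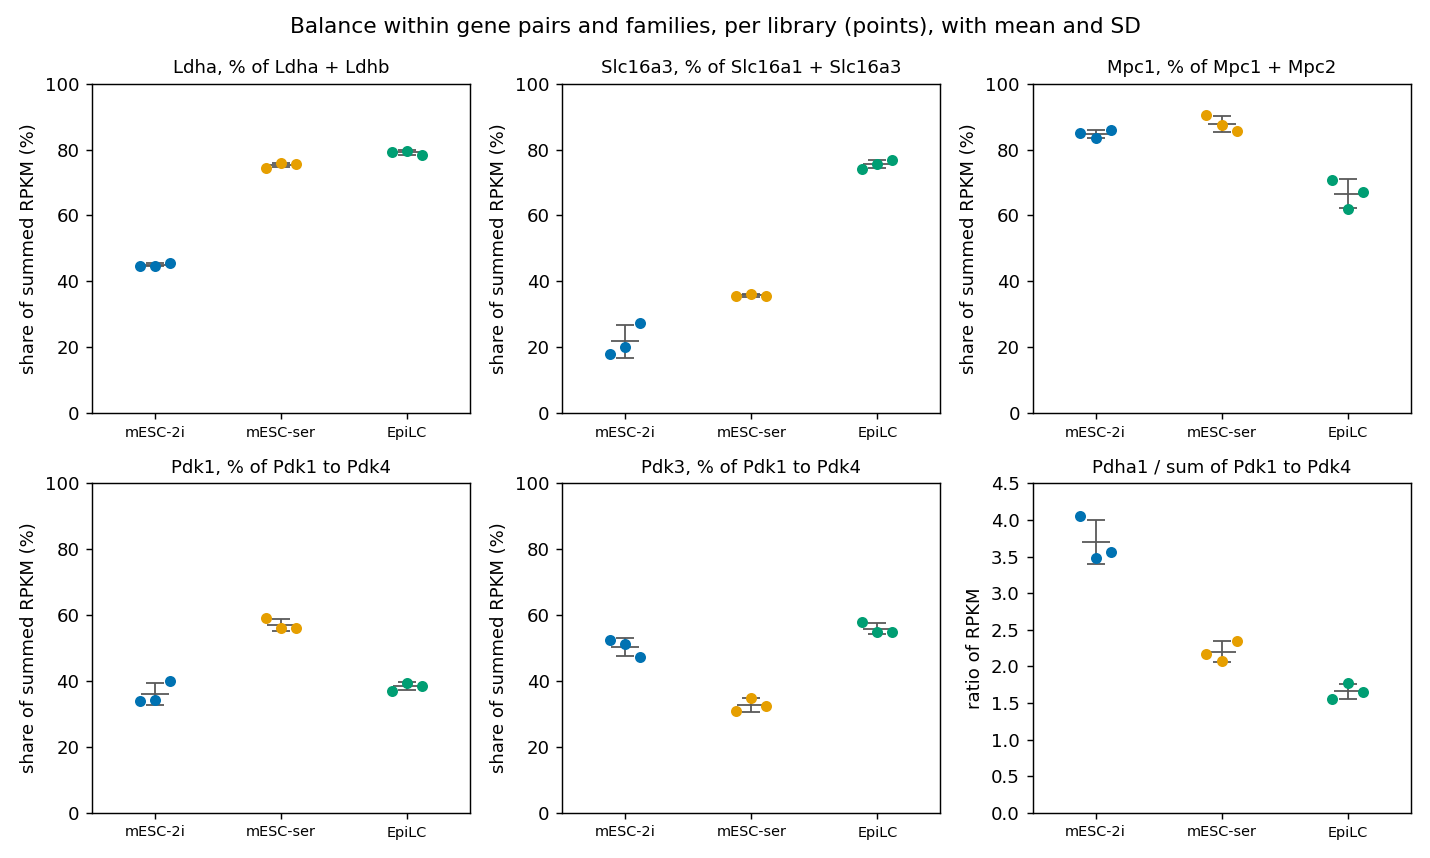
Share of a gene in the summed RPKM of its pair or family (percent, axis from 0 to 100), and the ratio of Pdha1 to the summed kinases, in each library of the 3 states, with bars at the mean and SD. Ldha made up 45% of its pair in mESC-2i and 79.1% in EpiLC, Slc16a3 21.8% and 75.6%, and the Pdha1 ratio was 3.7 in mESC-2i and 1.66 in EpiLC.

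Slc16a3 changed more than any other gene of the list, on the log2 scale, in both EpiLC comparisons. It lies on chromosome 11 (120948480 to 120960868, plus strand). The mESC-2i libraries held 35.2, 41 and 55.1 CPM, the mESC-ser libraries 105, 105 and 103, and the EpiLC libraries 626, 637 and 651. No 2 states overlapped. It rose by 1.19 ± 0.15 on the log2 scale in mESC-ser (SE, edgeR, adjusted p = 5.03e-05), by 3.84 ± 0.16 in EpiLC against mESC-2i (edgeR, adjusted p = 1.02e-08), and by 2.69 ± 0.08 in EpiLC against mESC-ser (edgeR, adjusted p = 4.72e-14). Over 17 alternative fits the EpiLC values stayed between 3.50 and 4.04 and between 2.35 and 2.75.

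Slc16a1, on chromosome 3 (104638668 to 104658462, plus strand), moved little. Its levels were 135, 136 and 121 CPM in mESC-2i, 159, 155 and 156 in mESC-ser, while EpiLC had 181, 170 and 164. The ranges did not overlap, and the log2 differences were 0.21, 0.37 and 0.21 for mESC-ser against mESC-2i, EpiLC against mESC-2i and EpiLC against mESC-ser, none of which reached the fold threshold. Their edgeR adjusted p-values were 0.0795, 0.00317 and 0.016, and the first was 0.0262 with the replicate block. With total-count scaling the difference between EpiLC and mESC-ser was negative, at -0.13. Within the pair, Slc16a3 took 17.8%, 20% and 27.5% of the summed RPKM in mESC-2i, 35.4%, 36.1% and 35.5% in mESC-ser, against 74.2%, 75.7% and 76.8% in EpiLC. Each contrast reached p = 0.1, the smallest the exact permutation test allows. The summed RPKM of both transporters was 37.8 ± 0.672, 55.1 ± 0.556 and 159 ± 0.598 (SD, n = 3), so the transporter that led changed from Slc16a1 in both mESC states to Slc16a3 in EpiLC.

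Bsg encodes basigin, the membrane partner that MCT1 and MCT4 need to reach the cell surface. It lies on chromosome 10 (79704491 to 79711969, plus strand). The libraries held 336, 387 and 285 CPM in mESC-2i, 226, 231 and 210 in mESC-ser, and the EpiLC libraries had 667, 664 and 666. The 3 states did not overlap, with mESC-ser lowest. Bsg fell by 0.65 on the log2 scale in mESC-ser (edgeR, adjusted p = 0.000791), and EpiLC exceeded mESC-2i by 0.97 (adjusted p = 1.96e-05) and mESC-ser by 1.67 (adjusted p = 4.82e-12). Bsg has a GC content of 57.6%, the highest of the 10, and with length and GC offsets its values were -0.30, 0.30 and 0.62, of which only the last was still called. The ratio of Bsg to the summed transporters, in RPKM, was 4.9 ± 0.683 in mESC-2i, against 2.23 ± 0.103 in mESC-ser and 2.31 ± 0.00733 in EpiLC (SD, n = 3). The mESC-ser and EpiLC ratios overlapped (exact permutation p = 0.4), and both lay below mESC-2i (p = 0.1 each, the smallest possible). This ratio was not computed with length and GC offsets. Under them EpiLC differed from mESC-ser by 0.62 in Bsg, 2.74 in Slc16a3 and 0.39 in Slc16a1 on the log2 scale. The overlap of the 2 ratios may therefore depend on the processing.

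Embigin (Emb), a relative of basigin that can also accompany these transporters, is not among the 10 genes. It stood at 15.1, 15.3 and 10.8 CPM in mESC-2i, 168, 162 and 146 in mESC-ser, while EpiLC had 329, 307 and 306. Every mESC-ser and EpiLC library was far above every mESC-2i library. The log2 fold changes were 3.49 ± 0.15, 4.51 ± 0.14 and 1.07 ± 0.08 for mESC-ser against mESC-2i, EpiLC against mESC-2i and EpiLC against mESC-ser (SE, edgeR, adjusted p = 4.35e-08, 2.13e-09 and 2.64e-09). In RPKM it went from 1.98 in mESC-2i to 45.5 in EpiLC, while Bsg remained higher, at 367 in EpiLC. MCT2 (Slc16a7) was near the limit of counting, at no more than 0.879 CPM in any library, and was not tested.

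**Figure D3:**
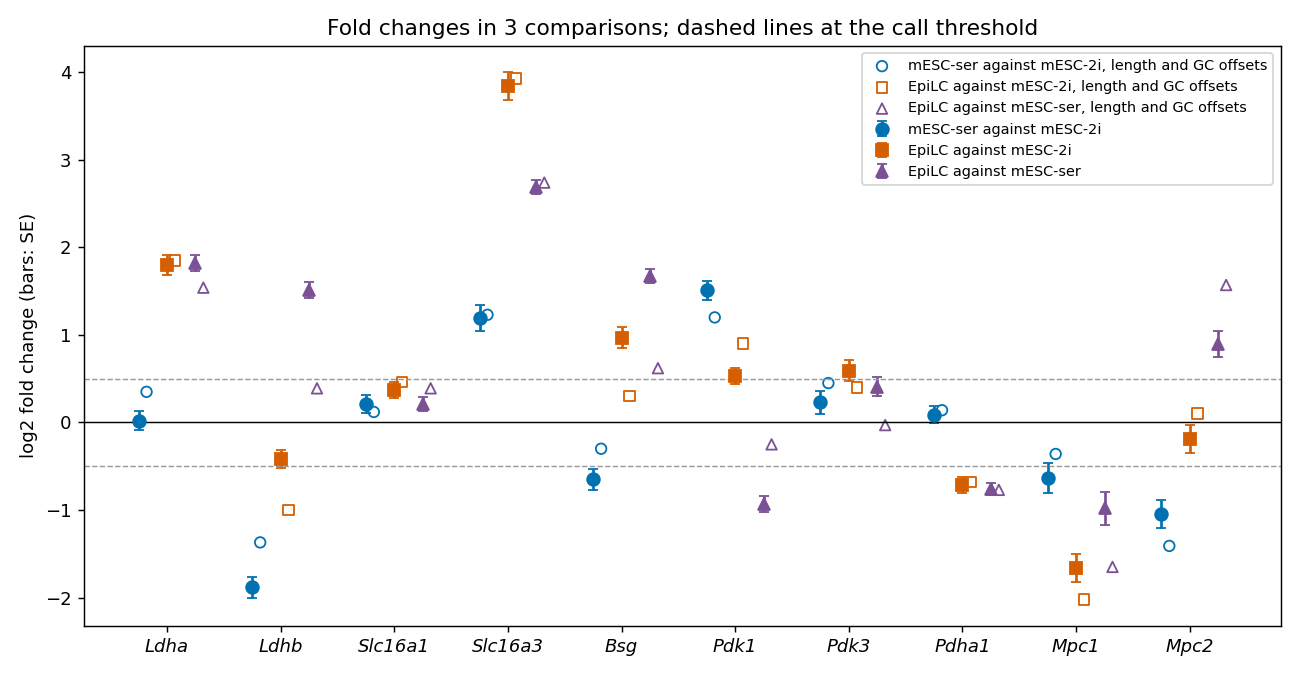
Log2 fold change of the 10 genes in the 3 comparisons (filled symbols, with SE bars) and the same with length and GC offsets (open symbols); the dashed lines mark the call threshold of 0.5 in either direction. Slc16a3 and Ldha in EpiLC changed little under the offsets, whereas Bsg, Ldhb and Pdk1 moved towards 0 in EpiLC against mESC-ser.

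Pdk1, on chromosome 2 (71873224 to 71903858, plus strand), phosphorylates Pdha1 and is a known target of hypoxia-inducible factor. It was highest in mESC-ser. The libraries held 50.2, 55.2 and 58.3 CPM in mESC-2i, 172, 168 and 146 in mESC-ser, against 83.1, 76.3 and 80.7 in EpiLC. No 2 states overlapped. Pdk1 rose by 1.51 on the log2 scale in mESC-ser (edgeR, adjusted p = 1.16e-06) and stayed called in each alternative fit, with values from 1.20 to 1.59. EpiLC lay 0.53 above mESC-2i (edgeR, adjusted p = 0.000309), close to the threshold, and this call was lost with total-count scaling (0.19) and when at least 10 counts were required in every library (0.47). EpiLC lay below mESC-ser by -0.93 (edgeR, adjusted p = 3.22e-08), a call lost with length and GC offsets (-0.25).

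Pdk3 is the other kinase of the list and lies on chromosome X (93764607 to 93832201, minus strand). Its libraries held 25.7, 27.2 and 22.7 CPM in mESC-2i, 29.7, 34.6 and 27.7 in mESC-ser, and the EpiLC libraries had 42.7, 34.8 and 37.8. EpiLC was highest, by a small margin over mESC-ser. Only EpiLC against mESC-2i was called, at 0.59 (edgeR, adjusted p = 0.000819), and this call was lost with total-count scaling (0.25) and with length and GC offsets (0.40). The values were 0.23 for mESC-ser against mESC-2i (edgeR, adjusted p = 0.139) and 0.41 for EpiLC against mESC-ser (adjusted p = 0.00202).

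Of the 4 kinase genes Pdk1 to Pdk4, the remaining Pdk2 and Pdk4 were low. Pdk2 stood at 3.99, 5.63 and 4.47 CPM on average in mESC-2i, mESC-ser and EpiLC and was not called, though with length and GC offsets it was called higher in mESC-ser than in mESC-2i (0.67) and lower in EpiLC than in mESC-ser (-0.69). Pdk4 held 5.03, 5.42 and 4.29 CPM in mESC-2i, 7.14, 6.45 and 6.66 in mESC-ser, while EpiLC had 0.537, 0.325 and 0.377. The EpiLC values rest on 3 or 4 counts a library. In EpiLC it fell by 3.57 ± 0.31 on the log2 scale from mESC-2i (SE, edgeR, adjusted p = 1.69e-06) and fell by 3.93 ± 0.28 from mESC-ser (adjusted p = 1.07e-09). In RPKM the kinases summed to 19.5 ± 1.01, 36.5 ± 2.69 and 26.8 ± 1.99 (SD, n = 3) in mESC-2i, mESC-ser and EpiLC. Pdk1 made up 36% ± 3.41, 57% ± 1.69 and 38.4% ± 1.23 of that sum, and Pdk3 50.3% ± 2.76, 32.8% ± 2.04 and 55.9% ± 1.7. The Pdk1 share was thus largest in mESC-ser, without overlap (exact permutation p = 0.1 against each other state, the smallest possible). It overlapped between mESC-2i and EpiLC (exact permutation p = 0.4). The shares were not computed with length and GC offsets. Under these offsets EpiLC differed from mESC-ser by -0.25 in Pdk1 and -0.03 in Pdk3 on the log2 scale. From mESC-2i it differed by 0.90 in Pdk1 and 0.40 in Pdk3.

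Pdha1, the subunit that the kinases phosphorylate, lies on chromosome X (160122209 to 160138413, minus strand). It held 289, 268 and 249 CPM in mESC-2i, 304, 298 and 294 in mESC-ser, against 168, 165 and 165 in EpiLC. The EpiLC libraries were below all mESC libraries. Pdha1 fell in EpiLC by 0.71 on the log2 scale from mESC-2i (edgeR, adjusted p = 3.77e-05) and by 0.76 from mESC-ser (adjusted p = 5.95e-08), and both calls held in every alternative fit. Between the mESC states the difference was 0.09 (edgeR, adjusted p = 0.431). Exons of Map3k15 on the opposite strand cover 16.1% of Pdha1's exonic bases. The library kit does not mark strand, so reads there cannot be assigned to either gene, and Map3k15 had at most 9.55% of the Pdha1 count in any library.

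The ratio of Pdha1 to the summed kinases, in RPKM, was 4.05, 3.48 and 3.56 in mESC-2i, 2.17, 2.07 and 2.35 in mESC-ser, and the EpiLC libraries had 1.56, 1.78 and 1.65. The states did not overlap, and each contrast gave p = 0.1, the smallest the exact permutation test allows. The lower ratio came with more kinase transcript in mESC-ser and, in EpiLC, with less Pdha1 as well. Pdhb, Dlat, Dld and Pdhx, genes of other subunits, were not called in an EpiLC comparison. Pdhb, the beta subunit, had log2 differences of 0.04, -0.05 and -0.04 in the 3 comparisons, and Dlat, the acetyltransferase core, had -0.13, -0.06 and 0.11, none of them called. Dld, the lipoamide dehydrogenase, was called only in mESC-ser against mESC-2i (0.59, edgeR, adjusted p = 0.000643), and this was 0.49 with length and GC offsets. With total-count scaling Dld was called lower in EpiLC than in mESC-ser (-0.60). Pdhx, which anchors Dld in the complex, was called in none, with its largest difference in EpiLC against mESC-ser (-0.45, edgeR, adjusted p = 0.000631), which was called in 5 alternative fits, among them total-count scaling (-0.79). Whether Pdha1 differed from these subunits was not tested.

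Mpc1 and Mpc2 form the pyruvate carrier of the inner mitochondrial membrane as partners, and their transcripts took different courses. Mpc1 lies on chromosome 17 (8282904 to 8297661, plus strand). It held 17.4, 19.2 and 17 CPM in mESC-2i, 14.4, 12.2 and 9.42 in mESC-ser, while EpiLC had 6.98, 4.99 and 5.28. The states followed each other without overlap. Mpc1 fell by 0.63 on the log2 scale in mESC-ser (edgeR, adjusted p = 0.0062), by 1.66 in EpiLC against mESC-2i (adjusted p = 3.82e-06) and by 0.98 in EpiLC against mESC-ser (adjusted p = 0.000145). The mESC-ser call was lost with length and GC offsets (-0.36) and without mESC-ser replicate 3 (-0.47).

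These values rest on 42 to 230 counts per library, and the locus has a close copy. The processed pseudogene Mpc1-ps had 117, 180 and 161 counts in mESC-2i, 115, 83 and 116 in mESC-ser, against 55, 53 and 43 in EpiLC, up to 115% of the count of Mpc1 itself. Of Mpc1's 50-base words, 11% also occur in Mpc1-ps, so some reads of this length can be divided between the copies. Another 15.3% are shared with 4930506C21Rik, a transcript of the opposite strand that overlaps 23.1% of Mpc1's exonic bases and had at most 3 counts in a library. With the counts of Mpc1-ps added, the levels were 31.8, 34.2 and 29.5 CPM in mESC-2i, 22.5, 19.3 and 16.1 in mESC-ser, and the EpiLC libraries had 14.4, 10.7 and 10.7. The order of the states was the same and the ranges did not overlap. The log2 fold changes became -0.78, -1.44 and -0.61 (edgeR, adjusted p = 0.000658, 4.36e-06 and 0.00141), and all 3 were called.

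**Figure D4:**
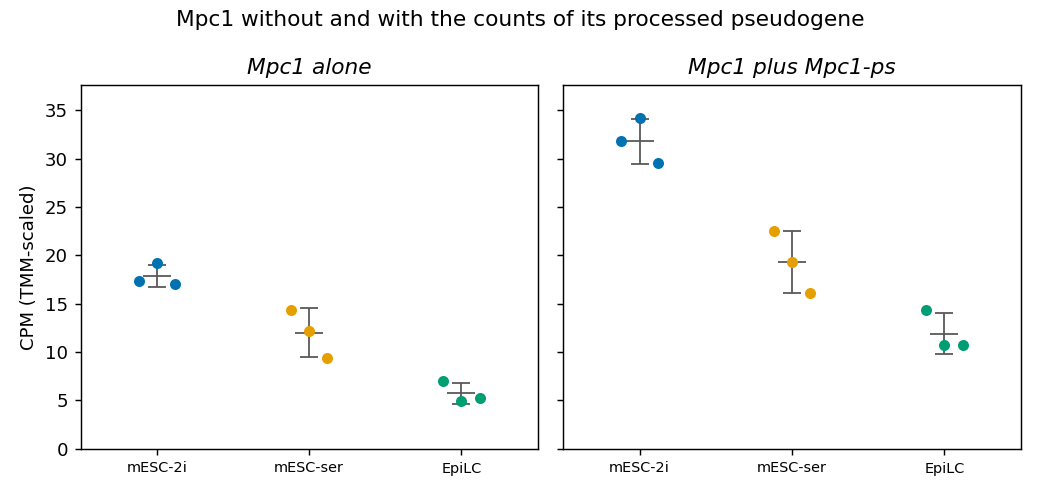
Level of Mpc1 (CPM, TMM-scaled, axis from 0) in each library, counted alone (left) and with the counts of the processed pseudogene Mpc1-ps added (right), with bars at the mean and SD. In both panels mESC-2i is highest and EpiLC lowest, with means of 17.9, 12 and 5.75 CPM on the left and 31.8, 19.3 and 11.9 on the right.

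Mpc2, on chromosome 1 (165460637 to 165481214, plus strand), was the lowest of the 10 per length in every state, at 1.55 ± 0.243, 0.781 ± 0.0563 and 1.37 ± 0.108 RPKM (SD, n = 3). It held 10.8, 13.3 and 9.9 CPM in mESC-2i, 5.39, 6.19 and 5.63 in mESC-ser, while EpiLC had 10.2, 10.7 and 9.17. These levels rest on 73 to 160 counts per library. mESC-ser was below the other 2 states, which overlapped. Mpc2 fell by 1.04 on the log2 scale in mESC-ser (edgeR, adjusted p = 0.000223) and was 0.90 higher in EpiLC than in mESC-ser (adjusted p = 2.67e-05). EpiLC against mESC-2i gave -0.19 (adjusted p = 0.279), and -0.53 with total-count scaling, which was called. Mpc1 took 84.8% ± 1.17, 87.8% ± 2.47 and 66.6% ± 4.31 of the summed RPKM of the pair in mESC-2i, mESC-ser and EpiLC (SD, n = 3). The share was lower in EpiLC than in each mESC state (exact permutation p = 0.1, the smallest possible), and the mESC states overlapped (p = 0.2). These shares leave out the counts of Mpc1-ps and were not computed with them. With those counts the fall of Mpc1 in EpiLC was smaller, at -1.44 in place of -1.66 from mESC-2i. From mESC-ser it was -0.61 in place of -0.98.

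Ordered by RPKM within each state, the list changed at the top and in the middle. In mESC-2i Ldhb (249), Ldha (203) and Bsg (185) led, and neighbours in that order overlapped. With the length of the longest transcript Ldha stood above Ldhb there, at 55.3% of the pair. The full order was not computed with that length. In mESC-ser Ldha (215) led Bsg (123), Pdha1 (79.9) and Ldhb (70.3), with no overlap between neighbours. In EpiLC Ldha (715) led Bsg (367), Ldhb (189) and Slc16a3 (120), again without overlap, and Slc16a3 stood above Pdha1 (44.5) and Slc16a1 (38.8). In mESC-2i Slc16a3 (8.24) had been among Pdk3 (9.83), Mpc1 (8.58) and Pdk1 (7.02), which overlapped from 1 to the next.

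Another 29 genes of lactate and pyruvate metabolism were looked up, and 28 were in the table. Between mESC-ser and mESC-2i 12 of the 22 tested were called, 6 in each direction, beside 56.2% of all tested genes, and their median log2 fold change was 0.10 (-0.04 over all tested genes). Between EpiLC and mESC-2i it was 9 of 21, 4 higher and 5 lower, beside 69.8% of all, with a median of -0.05 (-0.11 over all). Between EpiLC and mESC-ser it was 10 of 20, 6 higher and 4 lower, beside 73.3% of all, with a median of -0.09 (-0.07 over all). Emb, Pdp2 and Pdpr were called in all 3 comparisons. Pkm, which makes most of the pyruvate of glycolysis in such cells, was called in none, at 1590, 2173 and 1822 CPM on average in mESC-2i, mESC-ser and EpiLC. It was higher in mESC-ser than in mESC-2i without overlap (0.39, edgeR, adjusted p = 0.0071), under the fold threshold. With total-count scaling Pkm was called lower in EpiLC than in mESC-ser (-0.51). Ldhal6b was not analysed here. Slc16a7, Slc16a8, Slc5a8, Slc5a12, Me3 and Hcar1, the lactate receptor, had too few counts to be tested in any comparison, as did Ldhd and Pdha2 in EpiLC against mESC-ser and Pklr in EpiLC against mESC-2i.

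Pdp2 and Pdpr act on the phosphatase side, which reverses the kinases. Pdp2 is a catalytic subunit and Pdpr the regulatory subunit of pyruvate dehydrogenase phosphatase. Pdp1, the other catalytic subunit, was called in no comparison, with log2 differences of 0.50, 0.31 and -0.15. The first of these was called in some alternative fits, among them RLE scaling (0.53). Pdp2 held 27.6, 29.1 and 28.7 CPM in mESC-2i, 17.6, 14.5 and 16.5 in mESC-ser, against 7.52, 7.7 and 10.1 in EpiLC. It fell by 0.87, 1.78 and 0.86 on the log2 scale in the 3 comparisons (edgeR, adjusted p = 0.000102, 8.93e-07 and 2.89e-05). Pdpr held 7.98, 9.34 and 14.3 CPM in mESC-2i, 52.4, 55.9 and 54.8 in mESC-ser, and the EpiLC libraries had 0.403, 0.651 and 0.754. It was highest in mESC-ser and near 0 in EpiLC, with 3 to 6 counts a library. It rose by 2.29 ± 0.18 in mESC-ser (SE, edgeR, adjusted p = 2.43e-06), and in EpiLC it fell by 4.12 ± 0.35 from mESC-2i (adjusted p = 1.44e-06) and fell by 6.37 ± 0.18 from mESC-ser (adjusted p = 2.93e-14).

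The other called genes are named here after their values were seen. In EpiLC Glo1, the glyoxalase that opens the route from methylglyoxal to D-lactate, was higher than in mESC-2i by 1.11 and than in mESC-ser by 1.42 (edgeR, adjusted p = 1.13e-05 and 3.22e-11), and the alanine aminotransferase gene Gpt by 1.26 and 1.35. With length and GC offsets Glo1 was also called lower in mESC-ser than in mESC-2i (-0.82). Me1, the cytosolic malic enzyme, fell by 2.02 in mESC-ser and by 2.09 in EpiLC against mESC-2i, while Me2, its mitochondrial relative, was higher by 0.63 and 0.72. The first Me2 call was lost with length and GC offsets (0.32) and the second with total-count scaling (0.39). Under the offsets Me2 was called higher in EpiLC than in mESC-ser (0.77). Pyruvate carboxylase (Pcx) was higher in mESC-ser than in mESC-2i by 0.68, and lower in EpiLC than in mESC-ser, by -1.09. Gpt2 was lowest in mESC-ser, with -1.01 against mESC-2i and 0.92 for EpiLC against mESC-ser. The rest were low genes (Ldhc, Ldhd, Pdha2 and Pklr, at most 5.51 CPM on average in any state) and Hagh, whose rise of 0.63 in EpiLC against mESC-ser turned to -0.32 with length and GC offsets.

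**Figure D5:**
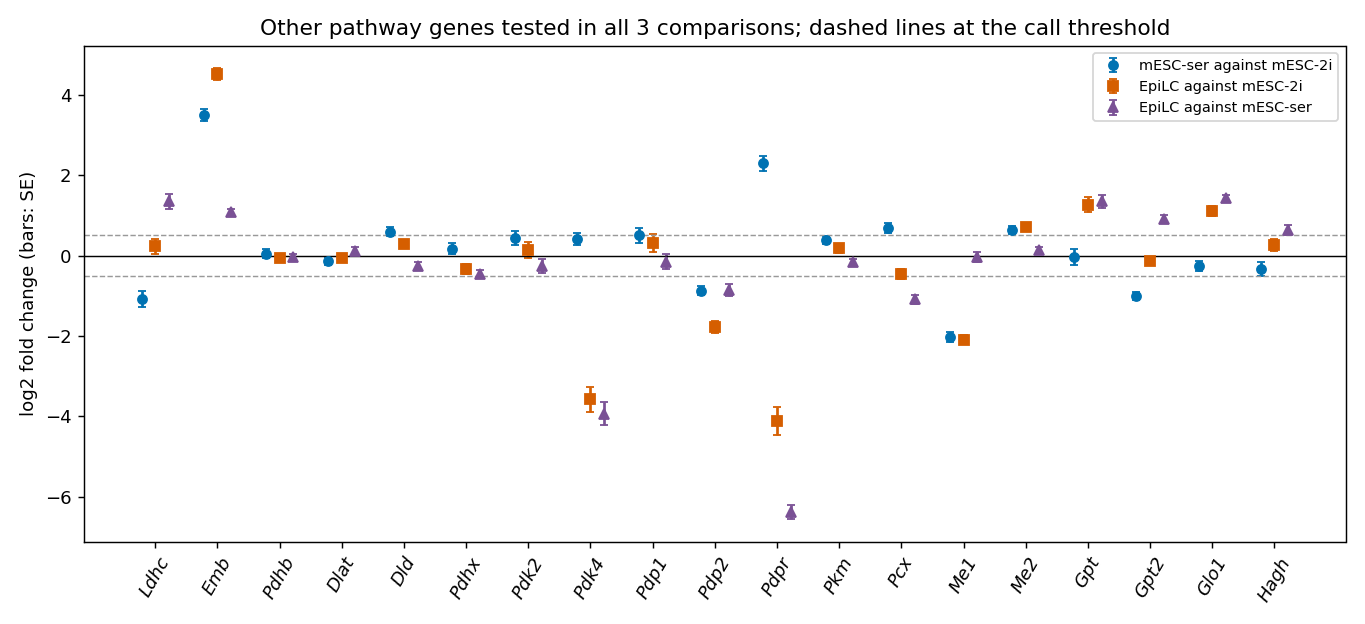
Log2 fold change (with SE bars) of the 19 further pathway genes tested in all 3 comparisons; the dashed lines mark the call threshold of 0.5 in either direction. Emb lies above 0 in all 3, Pdp2 below 0 in all 3, and Pdpr is higher in mESC-ser and lower in EpiLC, while Pdhb and Dlat sit at 0.

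The genes whose course over the 9 libraries was most like that of a listed gene were sought among 9128 protein-coding genes. These had a mean of at least 100 counts, which Mpc2 did not reach. Likeness was measured by the root mean square difference of log2 CPM after centring each gene. For Ldha these were Rab5if (0.045), Utp11 (0.058) and Hras (0.070). For Slc16a1 they were Zfp622 (0.042), Pak1 (0.054) and Wipi2 (0.057), and for Pdk1 G3bp2 (0.098), Cbx5 (0.102) and Actn4 (0.112). Mpc1 was followed by Hsdl2 (0.124), Nptn (0.133) and Calu (0.152). Slc16a3 had the most distant neighbours, Myb (0.213), Syt13 (0.255) and Sssca1 (0.264). The measure is not scaled for the size of a change, and Slc16a3 changed most in both EpiLC comparisons. None of the 15 is another gene of the list, and likeness over 3 states says nothing of shared function.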

How the data were processed

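Polyadenylated RNA was sequenced as 50 bp single-end reads (TruSeq RNA v2, no strand marking). The authors trimmed the reads (Trim Galore 0.6.6), aligned them to mm10 (HISAT2 2.2.1) and counted them per gene (featureCounts, Subread 2.0.1), and deposited raw counts for 38293 genes. The annotation release and the handling of reads with several alignments are not given in the sources used here. Symbols, positions and exonic lengths were taken from GENCODE M21 (95.1% of gene IDs matched). Genes without a symbol held 0.596% to 0.827% of counts.

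Each pair of states was fitted on its 6 libraries with edgeR 4.0.16 (R 4.3.3; TMM, filterByExpr, glmQLFit and glmQLFTest) on the whole table. Within-pair shares of RPKM were compared by a two-sided exact permutation test. Shares and ratios were not computed with length and GC offsets. The fits were tested on simulated data. Alternatives were other scalings (RLE, upper quartile, total count), other filters, DESeq2 1.42.0, all 9 libraries in 1 fit, a replicate block, length and GC offsets (natural splines, 5 degrees of freedom), a fold threshold of 1, and leaving out each replicate. The addition of pseudogene counts was chosen after seeing the data.

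The 10 genes, the further pathway genes and the marker lists were chosen with earlier results of these data known. Named were all 10 genes, the further genes called in all 3 comparisons, those with a subunit or family tie, those not counted, and the 3 nearest in course for 5 genes. Same-numbered replicates deviated together between mESC-ser and mESC-2i (correlations of 0.127 to 0.34, every pair over 0.1), which was taken as a pairing. Values are nevertheless given without the block, and the exact permutation tests of the shares did not keep the pairs. In the other comparisons the correlations were 0.0221 to 0.109 and 0.017 to 0.0339, too low to take as a pairing. No 2 libraries agreed within sampling noise (chi-square per degree of freedom of at least 1.61 between replicates). Replicate 3 stood apart in both mESC states. Against replicates 1 and 2 it gave 12.6 and 28.3 in mESC-2i, and 10.9 and 11 in mESC-ser. All other pairs of replicates gave at most 4.53.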

Additional observations from a re-analysis of the deposited data

How the results depend on the processing

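Of 510 alternative values for the fold changes of the 10 genes, 482 kept their direction and their side of the call threshold, 16 lost a call and 4 gained one. The remaining 8 changed sign without being called in either fit (Ldha in mESC-ser against mESC-2i, Mpc2 in EpiLC against mESC-2i, Slc16a1 and Pdk3 in EpiLC against mESC-ser), and no called value did. Of the further pathway genes, only Hagh had a called value that changed sign, in EpiLC against mESC-ser (-0.32 with length and GC offsets, with or without the block). With a log2 fold change threshold of 1 the calls among the 10 fell to 3 in EpiLC against mESC-2i and to 4 in EpiLC against mESC-ser, where 48.5% and 51.9% of all tested genes were called, and the other 112 alternative counts of calls stayed within 1.5 times. The replicate block gave 6, 7 and 8 calls in mESC-ser against mESC-2i, EpiLC against mESC-2i and EpiLC against mESC-ser, as without it, and changed no call of the 10. With the block and length and GC offsets together the calls were 4, 6 and 6, beside 53.0%, 64.7% and 63.0% of all tested genes. Total-count scaling moved the median log2 fold change of all tested genes to -0.45 in EpiLC against mESC-2i and to -0.41 in EpiLC against mESC-ser, with 33.7% and 37.4% of all calls higher in place of 45.9% and 48.4%. The longest transcript in place of all exons moved 14 of 21 group means of the shares by more than 1 SD. The calls that length and GC offsets or total-count scaling ended are given beside each gene, except that Ldhc in EpiLC against mESC-ser was 0.39 with the offsets and Hagh in the same comparison 0.29 with total-count scaling. The cause was not tested. Leaving out mESC-ser replicate 3 ended the calls of Mpc1 in mESC-ser against mESC-2i (-0.47) and of Hagh in EpiLC against mESC-ser (0.47), and brought calls of Pdp1 (0.62) and Pdhx (-0.54) in the same comparisons. Pdk2 was called in mESC-ser against mESC-2i without mESC-ser replicate 2 (0.54) or mESC-2i replicate 2 (0.52), Pdp1 without mESC-2i replicate 1 (0.58) or 3 (0.51), and Pcx in EpiLC against mESC-2i without mESC-2i replicate 1 (-0.51). Precision is limited by low counts in Mpc1 and Mpc2, and in Pdk4 and Pdpr in EpiLC. It is also limited in Pklr, Pdha2 and Ldhd, which had too few counts for a test in some comparisons.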
